A study of Mus musculus with 6 samples.

Results

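The genes described here are the matrix metalloproteinases (MMPs), their tissue inhibitors (TIMPs), the secreted ADAMTS proteases and the ADAMTS-like proteins, which share the ADAMTS domains but lack the protease domain. They were chosen by symbol alone, as every listed *Mmp*, *Timp1* to *Timp4*, *Adamts* and *Adamtsl* gene with a numbered name. The rule took 51 of the 34745 genes in the table, of which 23 were *Mmp*, 4 *Timp*, 19 *Adamts* and 5 *Adamtsl* genes. Of the 51 genes, 49 had at least 1 count in a library and 40 were abundant enough to be tested between the labels. *Mmp7* and *Mmp20* had a count of 0 in each of the 6 libraries.

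RNA-seq was performed on cardiac fibroblasts taken from the left ventricle of mice on Day 7 after myocardial infarction (MI), which was produced by permanently tying off the left anterior descending artery. There were 3 libraries labelled KO and 3 labelled WT. KO stands for mice on the C57BL/6 background in which CRISPR/Cas9 removed part of *Kdm5b*, with the JmjC domain of the histone demethylase KDM5B, and shifted the reading frame. WT stands for littermates, and mice of both kinds were males of 8 to 10 weeks at the operation. The deletion was carried by the whole animal, not by fibroblasts alone, and both labels had the infarction, so no uninjured level is given here. Whether the cells were cultured before RNA extraction is not given in the sources used here. The labels do not say that the 3 libraries of a label came from separate animals, so the p-values measure the spread between these libraries, which may be technical.

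MMPs are zinc proteases that are made as inactive precursors and cut collagens, elastin, proteoglycans and other proteins of the extracellular matrix. TIMPs bind and block active MMPs, and TIMP3 also blocks several ADAMTS enzymes. ADAMTS enzymes trim procollagens and cut large proteoglycans such as aggrecan and versican, and in the infarcted heart these families take part in clearing damaged matrix and in forming the scar.

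The libraries held 12025403 to 15329427 counts on genes. A count of 0 allows up to 3 counts, which is 0.196 to 0.249 CPM (counts scaled to 1000000 in the library), and this floor covers counting error only. *Kdm5b* itself was at 98.1, 107 and 105 CPM in the KO-labelled libraries and at 108, 129 and 123 CPM in those labelled WT. Its log2 fold change was -0.22 (SE 0.07, edgeR adjusted p = 0.0574), so the count over the whole gene missed the threshold between the labels. The study reports, by Q-PCR, hardly any *Kdm5b* mRNA in cardiac fibroblasts of KO mice, which the counts over the whole gene do not show. Directions are given below for the libraries as labelled. All 12 fibroblast marker genes were counted. Their summed level was 26821 to 31266 CPM in the KO-labelled libraries and 37510 to 39956 CPM in those labelled WT. Most of this sum came from the collagen genes *Col1a1*, *Col1a2* and *Col3a1*. The means of these genes were 12481, 8657 and 5176 CPM with the label KO and 16980, 11266 and 6935 CPM with the label WT. The 12 endothelial markers summed to 1525 to 2192 CPM with the label KO and to 287 to 297 CPM with the label WT.

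Most of the protease and inhibitor genes that differed were modestly lower in the libraries labelled KO. The other 4, led by the collagenase gene *Mmp13*, were higher, 3 of them by more than 2-fold. With an adjusted p under 0.05 by edgeR's quasi-likelihood test over all 14084 genes tested, 22 of the 40 tested genes (55.0%) were called, against 30.2 percent of all genes. Of these, 18 (45%) were lower, against 12.5 percent of all genes, and 4 (10.0%) were higher, against 17.7 percent. The median log2 fold change was -0.37 over the 40 genes and -0.02 over all genes tested. Libraries of the 2 labels did not overlap for 28 of the 40 genes, against 47 percent of all genes. These were 24 genes with every library labelled KO lower, against 22.4 percent of all genes, and 4 with every such library higher, against 24.7 percent. The folds were unequal in size. Of the 40 genes, 3 (7.5%) were higher by more than 2-fold, close to the 5.99 percent of all genes tested, and 0 were lower by more than 2-fold, against 0.27 percent. The 18 falls ran from -0.79 to -0.30 on the log2 scale, with a median of -0.43. Their calls depended on the choice of scaling. The fibroblast markers include the matrix genes *Col1a1*, *Col1a2*, *Col3a1*, *Postn*, *Dcn* and *Lum*, and the median log2 fold change of the markers was -0.41. Scaling on these markers takes out any fall of about that size, so it cannot tell which scaling is right. Setting the fibroblast markers equal in every library moved all genes up by 0.41, after which 10 of the 18 were still below 0 and 8 were above 0, none of them past the threshold. Of the 40 genes, 0 were then lower and 11 (27.5%) higher past the threshold, the same 4 rises among them, while of all genes tested 61.4% were higher and 0.298% lower.

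**Figure D1:**
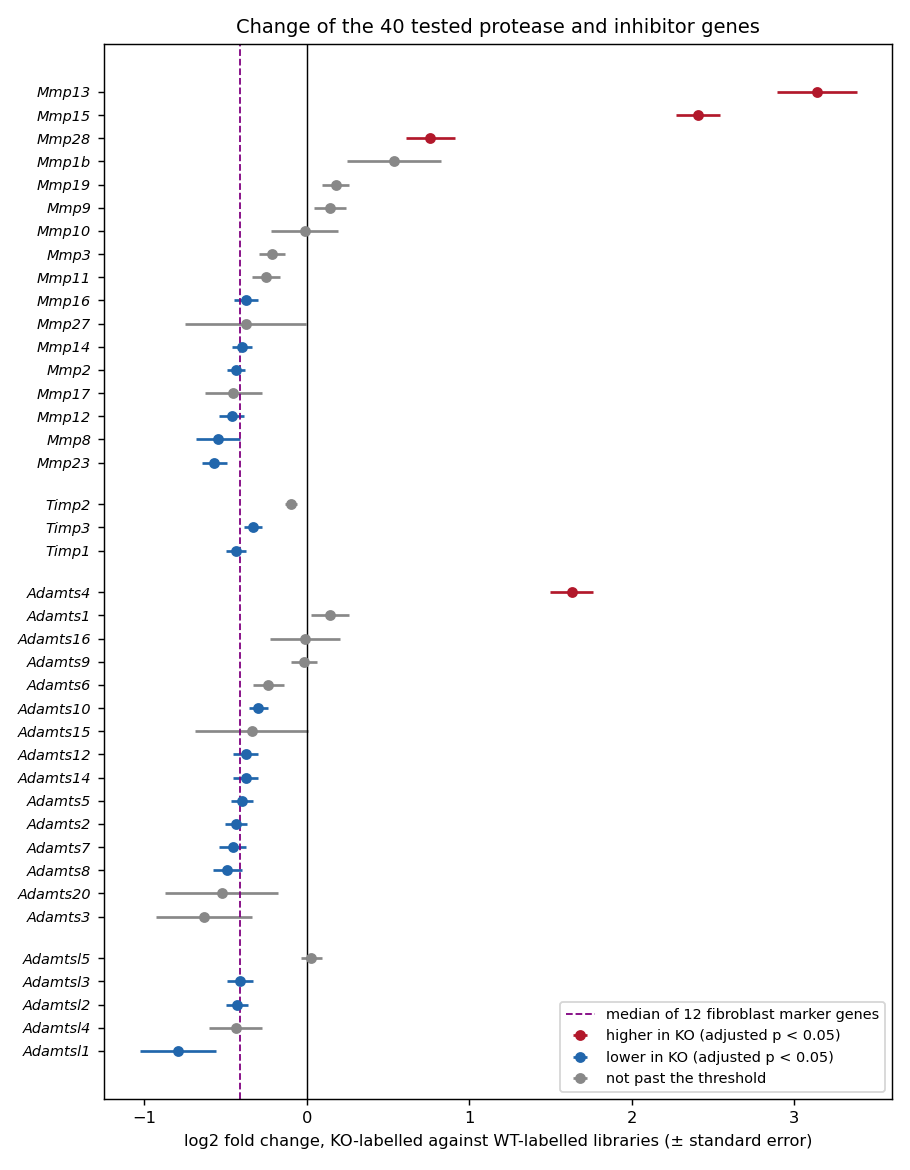
Log2 fold change of the 40 tested genes, libraries labelled KO against WT, on the horizontal axis, with 1 gene per row, ordered within *Mmp*, *Timp*, *Adamts* and *Adamtsl* genes. Points are edgeR estimates, bars are standard errors and the dashed line is the median of 12 fibroblast marker genes. *Mmp13*, *Mmp15*, *Adamts4* and *Mmp28* lie to the right of 0 past the threshold, and 18 genes past the threshold lie to the left, between -0.79 (*Adamtsl1*) and -0.30, around the dashed line at -0.41; with scaling on the fibroblast markers none of those 18 is lower past the threshold.

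*Mmp13* encodes collagenase 3, which cuts fibrillar collagen and is the main interstitial collagenase of rodents. It had 1050, 648 and 765 counts in the KO-labelled libraries and 93, 95 and 110 counts in those labelled WT, or 86.0, 48.6 and 49.3 CPM against 6.51, 6.48 and 7.82 CPM. The labels were far apart, and KO replicate 1 was higher than the other two. The mean level was 61.3 ± 21.4 CPM (SD, n = 3) with the label KO and 6.94 ± 0.764 CPM (SD, n = 3) with the label WT, an 8.84-fold ratio. The log2 fold change was 3.14 (SE 0.24, edgeR adjusted p = 6.16e-05), and it stayed between 2.82 and 3.29 when each library was left out in turn. None of the 2624 stretches of 50 bases in its transcripts was shared with another gene.

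*Mmp15* encodes a membrane-type MMP that is anchored by a transmembrane segment. It had 217, 248 and 344 counts in the KO-labelled libraries and 55, 50 and 53 counts in those labelled WT, so every library labelled KO was above every library labelled WT. The mean was 19.5 ± 2.34 CPM against 3.68 ± 0.233 CPM (SD, n = 3 each), a 5.31-fold ratio, and the log2 fold change was 2.41 (SE 0.13, adjusted p = 1.32e-05). *Mmp28*, the gene of the secreted MMP epilysin, rose less. It had 121, 97 and 134 counts against 76, 75 and 67 counts, again without overlap, and its log2 fold change was 0.76 (SE 0.15, adjusted p = 0.00701). Of the bases in *Mmp28* exons, 12% overlap *1700020L24Rik* on the opposite strand, which had 12 counts over the 6 libraries.

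Of the 15 tested *Adamts* genes only *Adamts4* rose past the threshold, against 17.7 percent of all genes tested. *Adamts4* encodes an aggrecan-cutting enzyme. It had 2603, 1939 and 2824 counts in the KO-labelled libraries and 783, 926 and 794 counts in those labelled WT. Per gene length this was 42.2, 28.5 and 35.9 FPKM (fragments per kilobase of gene, scaled to the library total) against 10.6, 12.1 and 10.9 FPKM. The lowest library labelled KO was more than 2-fold above the highest labelled WT, and the log2 fold change was 1.63 (SE 0.13, adjusted p = 7.41e-05).

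**Figure D2:**
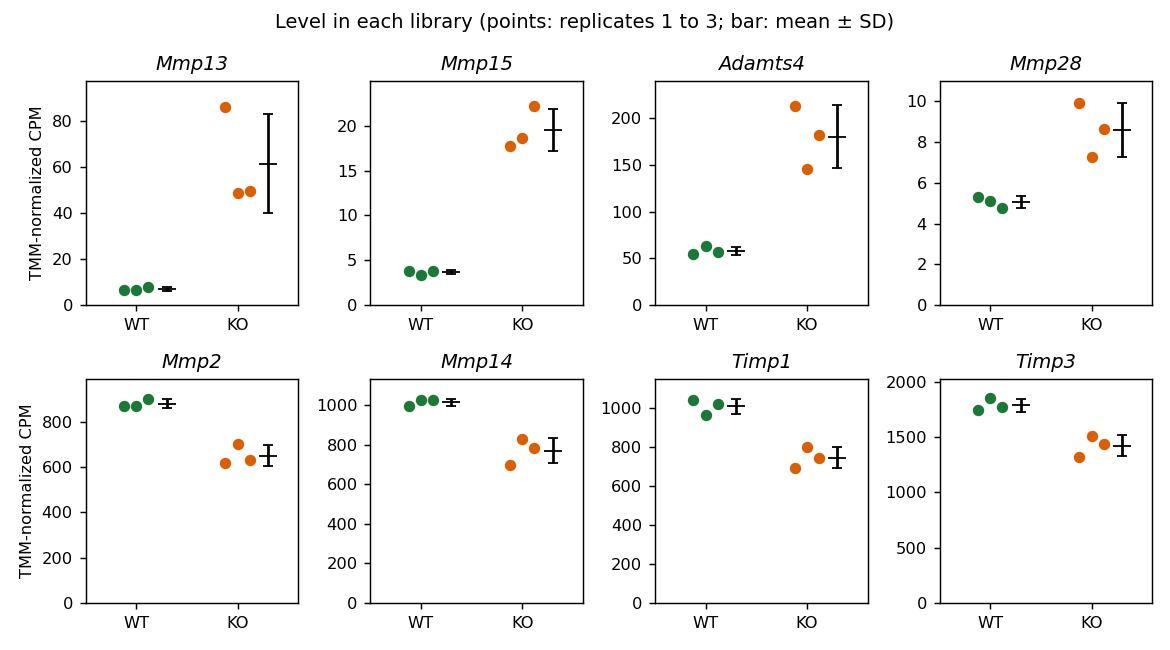
TMM-normalized CPM on the vertical axis (starting at 0) for 4 genes that rose (top row) and 4 abundant genes that fell (bottom row), in each of the 3 libraries labelled WT (green) and KO (orange), with the mean ± SD beside the points. The labels do not overlap in any of the 8 panels, and *Mmp13* ranges from 6.48 to 7.82 CPM with the label WT and from 48.6 to 86.0 CPM with the label KO. The 4 falls in the bottom row shrink to near 0 or turn positive, and lose their calls, when libraries are scaled on fibroblast markers.

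Most of the abundant genes of the set were lower in the libraries labelled KO, by less than 2-fold. *Mmp2* encodes gelatinase A and *Mmp14* the membrane-type MMP that activates it at the cell surface. *Mmp2* was at 206, 232 and 210 FPKM in the KO-labelled libraries and at 284, 281 and 293 FPKM in those labelled WT (log2 fold change -0.44, SE 0.06, adjusted p = 8.01e-04). *Mmp14* was at 123, 144 and 138 FPKM against 171, 175 and 176 FPKM (log2 fold change -0.40, SE 0.06, adjusted p = 0.00215). Neither gene had overlapping labels, and each spread less with the label WT than with the label KO. With scaling on the fibroblast markers the log2 fold changes were -0.02 for *Mmp2* and 0.01 for *Mmp14*. *Mmp9*, the gene of the second gelatinase, was at 4.41, 3.98 and 4.45 FPKM against 3.95, 3.46 and 3.95 FPKM. In FPKM the KO-labelled libraries were just above the others and in CPM the labels overlapped, and the log2 fold change of 0.14 (SE 0.10) did not pass the threshold (adjusted p = 0.318).

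Of the 3 TIMP genes tested, 2 fell, against 12.5 percent of all genes tested. *Timp1*, an inhibitor of many secreted MMPs, had the highest level per length of the whole set, with 508, 581 and 544 FPKM in the KO-labelled libraries and 743, 686 and 727 FPKM in those labelled WT (log2 fold change -0.44, SE 0.06, adjusted p = 0.00116). *Timp3*, whose protein is held in the matrix, was at 149, 168 and 161 FPKM against 191, 202 and 193 FPKM (log2 fold change -0.33, SE 0.06, adjusted p = 0.00301). Of its exon bases 21.3% lie opposite *Syn3*, which had 50 counts over the 6 libraries against 135318 for *Timp3*. *Timp2*, whose protein also takes part in the activation of MMP2, was at 118, 120 and 116 FPKM against 123, 124 and 123 FPKM. The labels of *Timp2* did not overlap either, but the log2 fold change of -0.10 (SE 0.04) did not pass the threshold (adjusted p = 0.0906). *Timp4* had 1 count in KO replicate 2 and 0 in the other 5 libraries. With scaling on the fibroblast markers *Timp1* stood at -0.02, *Timp3* at 0.08 and *Timp2* at 0.32, the last of these past the threshold (adjusted p = 0.00121).

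The other MMP genes that fell were *Mmp23*, *Mmp8*, *Mmp12* and *Mmp16*. *Mmp23*, which encodes an MMP with an amino-terminal membrane anchor, had 10.6, 11.7 and 12.6 FPKM in the KO-labelled libraries and 17.2, 16.5 and 16.7 FPKM in those labelled WT (log2 fold change -0.57, SE 0.07, adjusted p = 9.39e-04). *Mmp8*, the collagenase gene of neutrophils, had 4.54, 3.63 and 3.24 FPKM against 5.54, 5.40 and 5.29 FPKM (log2 fold change -0.55, SE 0.14, adjusted p = 0.0177). *Mmp12*, the metalloelastase gene of macrophages, had 5.25, 4.91 and 5.31 FPKM against 7.05, 6.23 and 7.54 FPKM (log2 fold change -0.46, SE 0.08, adjusted p = 0.00318). In none of these 3 genes did a library labelled KO reach the lowest library labelled WT. *Mmp16*, another transmembrane MMP gene, had 2.33, 2.23 and 2.53 FPKM against 2.93, 2.94 and 3.09 FPKM (log2 fold change -0.37, SE 0.07, adjusted p = 0.00684). The call of *Mmp8* was lost without KO replicate 2, KO replicate 3 or WT replicate 1, with adjusted p of 0.0511, 0.0628 and 0.0513. *Mmp23*, *Mmp8*, *Mmp12* and *Mmp16* stood at -0.16, -0.13, -0.04 and 0.04 with scaling on the fibroblast markers, none of them past the threshold. Of 10 neutrophil markers 9 were counted, with *Elane* at 0, and they summed to 7.95 to 10.3 CPM with the label KO and to 4.71 to 6.33 CPM with the label WT. This list was split, since *S100a8* (log2 fold change 2.99) and *S100a9* (1.95) rose and the other 2 tested markers, *Csf3r* and *Camp*, both stood at -0.41 without a call. Their part in the level of *Mmp8* was not tested. Macrophage markers, all 10 of them counted, summed to 1232 to 1265 CPM with the label KO and to 1521 to 1629 CPM with the label WT, and their part in the level of *Mmp12* was not tested.

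Under the main scaling the calls among collagenase genes and among membrane-type MMP genes went in both directions. These groups are small, and of all genes tested 17.7 percent were higher and 12.5 percent lower. Of the 3 tested collagenase genes, *Mmp13* rose, *Mmp8* fell and *Mmp1b* was not called (log2 fold change 0.54, SE 0.29, adjusted p = 0.199), so that the ratio of *Mmp13* to *Mmp8* in FPKM was 7.19, 5.04 and 5.75 in the KO-labelled libraries and 0.435, 0.442 and 0.545 in those labelled WT. Of the 4 tested membrane-type MMP genes, *Mmp15* rose, *Mmp14* and *Mmp16* fell and *Mmp17*, whose protein has a lipid anchor, was not called (log2 fold change -0.45, SE 0.18, adjusted p = 0.0875). None of the 3 stromelysin genes was called, against 30.2 percent of all genes tested. *Mmp3*, whose protein cuts proteoglycans and activates other MMPs, had 31.1, 29.0 and 31.4 FPKM against 34.7, 31.2 and 37.8 FPKM. In FPKM its KO replicate 3 lay above WT replicate 2, whereas in CPM every library labelled KO was below every library labelled WT. Its log2 fold change was -0.21 (SE 0.08, adjusted p = 0.0748).

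Of the 3 tested ADAMTS genes with known roles in collagen maturation 2 were lower, against 12.5 percent of all genes tested. ADAMTS2, ADAMTS3 and ADAMTS14 remove the amino-terminal propeptide of procollagens. *Adamts2* had 19.7, 23.8 and 21.6 FPKM in the KO-labelled libraries and 28.5, 28.9 and 28.8 FPKM in those labelled WT (log2 fold change -0.44, SE 0.07, adjusted p = 0.00248). *Adamts14* had 10.9, 12.9 and 12.2 FPKM against 14.4, 15.3 and 16.1 FPKM (log2 fold change -0.38, SE 0.08, adjusted p = 0.00814). Both genes were lower in 3 of 3 libraries labelled KO than in any labelled WT. *Adamts3*, at 0.165 to 0.200 FPKM against 0.206 to 0.355 FPKM, was not called (adjusted p = 0.145). *Adamts7* and *Adamts12* encode the enzymes known to cut cartilage oligomeric matrix protein. *Adamts7* had 11, 10.9 and 12.9 FPKM against 15.4, 14.5 and 16.7 FPKM (log2 fold change -0.46, SE 0.08, adjusted p = 0.00395). *Adamts12* had 21.1, 25.9 and 24.2 FPKM against 29.6, 30.2 and 30.4 FPKM (log2 fold change -0.38, SE 0.08, adjusted p = 0.00723). Neither gene had overlapping labels. With scaling on the fibroblast markers *Adamts2* and *Adamts7* stood at -0.02 and -0.04, and *Adamts12* and *Adamts14* both at 0.04.

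Of the 7 tested genes of the proteoglycan-cutting ADAMTS enzymes, 1 was higher, 2 were lower and 4 were not called. Of all genes tested 17.7 percent were higher and 12.5 percent lower. Beside *Adamts4*, which rose, *Adamts5* encodes the second major aggrecan-cutting enzyme. *Adamts5* had 18.3, 21.5 and 20.3 FPKM in the KO-labelled libraries and 25.8, 25.5 and 26.0 FPKM in those labelled WT (log2 fold change -0.40, SE 0.07, adjusted p = 0.0027). *Adamts8* had 2.27, 2.34 and 2.46 FPKM against 3.36, 3.24 and 3.09 FPKM (log2 fold change -0.49, SE 0.09, adjusted p = 0.0043). Both pairs of labels were apart, in the direction opposite to *Adamts4*, and with scaling on the fibroblast markers *Adamts5* stood at 0.01 and *Adamts8* at -0.07. *Adamts1*, *Adamts9*, *Adamts15* and *Adamts20* had overlapping labels and log2 fold changes of 0.14, -0.02, -0.34 and -0.52. In *Adamts1* the library KO replicate 1, with 34.0 FPKM, stood above KO replicates 2 and 3, with 24.1 and 25.4 FPKM, and the libraries labelled WT had 25.6, 23.3 and 24.9 FPKM. *Adamts10*, whose protein binds fibrillin microfibrils, had 10.1, 10.5 and 10.5 FPKM against 11.7, 12.7 and 13.0 FPKM (log2 fold change -0.30, SE 0.06, adjusted p = 0.00584), the smallest of the 18 falls, and stood at 0.12 with scaling on the fibroblast markers.

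Among the ADAMTS-like genes, 3 of 5 fell, against 12.5 percent of all genes tested. *Adamtsl2*, whose protein binds fibrillin-1 and latent TGF-β binding protein, had 26.4, 30.1 and 27.5 FPKM in the KO-labelled libraries and 37.6, 38.6 and 34.4 FPKM in those labelled WT (log2 fold change -0.43, SE 0.07, adjusted p = 0.00215). *Adamtsl3*, another secreted matrix protein gene, had 2.92, 3.16 and 3.12 FPKM against 3.64, 4.15 and 4.17 FPKM (log2 fold change -0.41, SE 0.08, adjusted p = 0.00631). The labels of both were apart. *Adamtsl1* had only 16, 21 and 33 counts against 43, 39 and 44 counts. Its log2 fold change was -0.79 (SE 0.24, adjusted p = 0.0362), and its call was the least stable of the set, lost in 10 of 15 alternative settings with adjusted p from 0.0283 to 0.132 outside the fibroblast marker scaling and 0.194 with it. With scaling on the fibroblast markers *Adamtsl2*, *Adamtsl3* and *Adamtsl1* stood at -0.02, 0.00 and -0.38. *Adamtsl4* (-0.44, adjusted p = 0.0782) and *Adamtsl5* (0.03, adjusted p = 0.767) were not called.

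More genes were called at higher levels, in this set as among all genes tested. Of the 17 genes with a mean of 10 FPKM or more, 2 were higher, 12 lower and 3 not called, and of all genes at such levels 16.5% were higher and 21.7% lower. Of the 16 genes between 1 and 10 FPKM, 2 were higher, 5 lower and 9 not called, against 19% higher and 10.4% lower of all genes. Of the 18 genes under 1 FPKM, 7 could be tested and 1, *Adamtsl1*, was called, against 20.1% of all genes tested at such levels. The 18 tested genes without a call ran from -0.63 to 0.54 on the log2 scale.

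The 9 genes with counts but no test were close to the floor. *Mmp1a* had 1, 2 and 5 counts in the KO-labelled libraries and 0 in each labelled WT. *Mmp24*, a membrane-type MMP gene, had 2, 8 and 5 counts against 0, 2 and 0. *Adamts17* had 1, 4 and 2 counts against 7, 10 and 7, which put each library labelled WT above each labelled KO. *Mmp25* had 0 counts in the KO-labelled libraries and 1 in each labelled WT, and *Adamts13*, the gene of the protease that cuts von Willebrand factor, had 0, 4 and 2 counts against 0 in each. *Adamts19* had 0, 3 and 3 counts against 3, 3 and 0. *Mmp21* had 2 counts in WT replicate 1 alone, and *Adamts18* had 1 count in KO replicate 2 alone, as *Timp4* did. These counts were too low for the test at this depth, and no fold is given.

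Summed over a family, the levels per length were lower with the label KO for MMPs and TIMPs and overlapped for ADAMTS genes, while the make-up of the sums changed. The MMP genes summed to 447, 474 and 454 FPKM in the KO-labelled libraries and to 552, 546 and 566 FPKM in those labelled WT. The TIMP genes summed to 774, 868 and 821 FPKM against 1057, 1011 and 1044 FPKM. The ADAMTS genes summed to 181, 172 and 179 FPKM against 178, 178 and 183 FPKM, with overlapping labels. In CPM, which weights long genes more, the ADAMTS sums did not overlap, at 1326, 1320 and 1360 CPM against 1460, 1456 and 1502 CPM. *Adamts4* made up 23.3%, 16.6% and 20.1% of the ADAMTS sum with the label KO and 5.93%, 6.81% and 5.94% with the label WT. *Mmp13* made up 7.30%, 3.85% and 4.11% of the MMP sum against 0.436%, 0.437% and 0.510%. *Mmp2* and *Mmp14* together fell from 82.3%, 83.5% and 82.8% of the MMP sum with the label WT to 73.6%, 79.3% and 76.6% with the label KO. Shares within a family do not move with the scaling of a library, whereas the sums do.

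The balance of inhibitors and proteases was close between the labels. The ratio of the TIMP sum to the MMP sum in FPKM was 1.73, 1.83 and 1.81 in the KO-labelled libraries and 1.92, 1.85 and 1.84 in those labelled WT. The highest library labelled KO was just under the lowest labelled WT, and the means were 1.79 ± 0.0519 and 1.87 ± 0.0391 (SD, n = 3 each). The difference of -0.0803 turned to 0.0117 with sums of CPM in place of FPKM and to 0.00673 without *Mmp13*. With 3 libraries against 3 an exact two-sided permutation test cannot go below a p of 0.1, and no other test of this ratio was run.

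**Figure D3:**
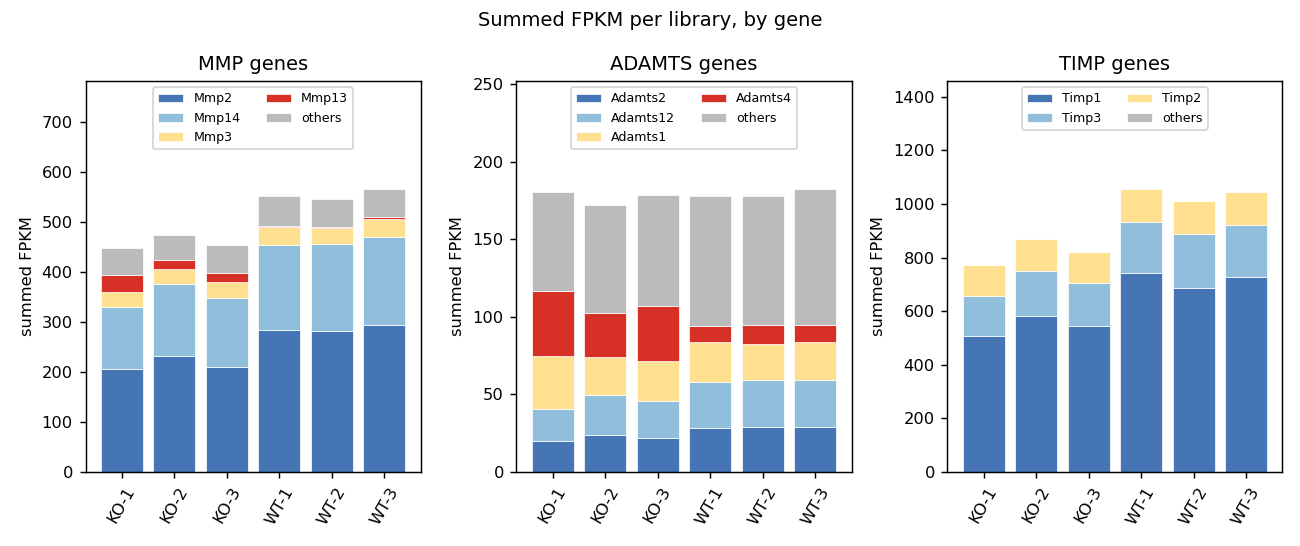
Stacked bars of summed FPKM (vertical axis, starting at 0) per library for the MMP genes (left), ADAMTS genes (middle) and TIMP genes (right), with the leading genes in color and the rest in gray. The MMP and TIMP bars are lower in the 3 libraries labelled KO on the FPKM scale, the ADAMTS bars lie between 172 and 183 FPKM in all 6 libraries, and the red *Mmp13* and *Adamts4* segments are larger with the label KO; scaling the libraries on fibroblast markers would change the heights of the bars but not the shares within them.

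Position in the genome did not sort the genes by direction. Of the *Mmp* genes, 10 lie in 1 group on chromosome 9 between 7272514 and 7699585 (GRCm38, as given in the table), a span of 427072 bases, in the order *Mmp13*, *Mmp12*, *Mmp1b*, *Mmp3*, *Mmp1a*, *Mmp10*, *Mmp8*, *Mmp27*, *Mmp20* and *Mmp7*. Of the 7 that could be tested, *Mmp13* at the edge of the group rose, *Mmp12* and *Mmp8* fell and *Mmp1b*, *Mmp3*, *Mmp10* and *Mmp27* were not called. Among all genes tested, 17.7 percent rose and 12.5 percent fell. *Mmp12*, the neighbor of *Mmp13*, fell from 70.0 ± 6.56 to 50.8 ± 1.91 CPM (SD, n = 3 each), and stood at -0.04 on the log2 scale with scaling on the fibroblast markers. *Mmp10* had 2.90, 1.97 and 3.00 FPKM with the label KO and 2.90, 2.66 and 2.20 FPKM with the label WT. *Mmp1b* shares 19.7% of its stretches of 50 bases with other genes, most with *Mmp1a*, and 157 exon bases with *Mmp12* on the opposite strand, and *Mmp3* and *Mmp10* share 8.39% and 8.37% of theirs, most with each other, so their counts are uncertain. Outside the group, *Adamts1* (not called) and *Adamts5* (lower) are neighbors on chromosome 16, and *Adamts15* (not called) and *Adamts8* (lower) on chromosome 9.

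**Figure D4:**
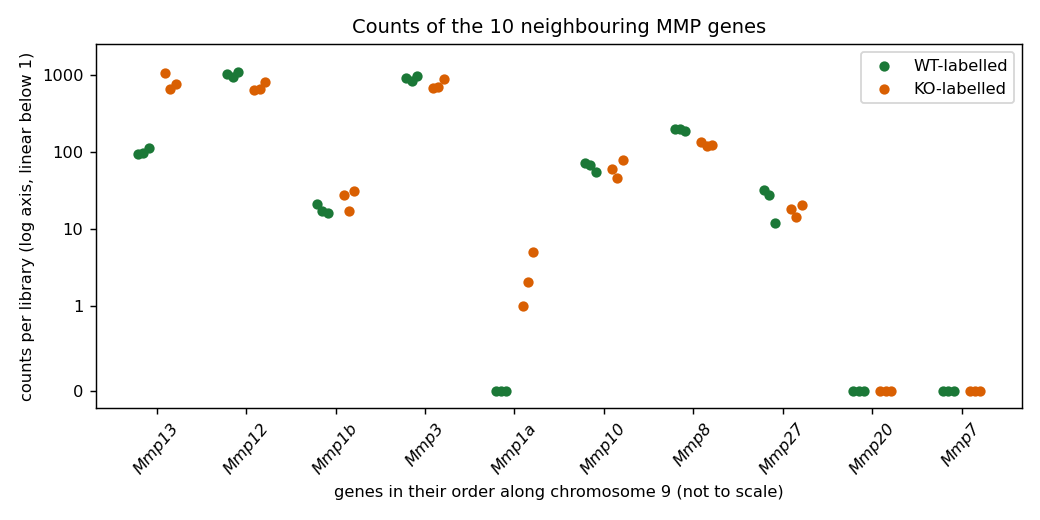
Counts per library (vertical axis, logarithmic above 1 and linear below) of the 10 neighboring *Mmp* genes of chromosome 9 in their order along it (horizontal axis, not to scale), for the 3 libraries labelled WT (green) and the 3 labelled KO (orange). *Mmp13* is the only one of the 7 tested genes whose points lie higher with the label KO past the threshold, *Mmp12* and *Mmp8* lie lower past the threshold under the main scaling and below 0 without a call with scaling on fibroblast markers, and *Mmp20* and *Mmp7* are at 0.

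The promoters of this group share short sequence features that the rule did not use. RefSeq promoters (GRCm38.p6, from 250 bases before to 50 bases after a start) were matched by symbol for 36 of the 51 genes, in 39 windows. The letters TGANTCA, which read alike on both strands and take in the usual AP-1 motif (TGACTCA or TGAGTCA), were found in 8 of the 39 windows (20.5%), against 7.81% of all 32851 promoters. The middle base was free in this search, and the match in *Mmp20*, TGAATCA, is not the usual motif. All 8 belonged to the chromosome 9 group, of which each of the 10 genes had an entry, and 0 of the 26 genes outside the group had the letters. The letters TATAAA, on either strand, were found in 12 of the 39 windows (30.8%), against 13.6% of all promoters, and the letters TGACGTCA, a cyclic AMP response element, in 0 of 39 against 1.79%. The 100 bases before the start are printed for the gene of the group that rose, the tested gene with the letters that fell, and 2 genes with the letters that were not called, with the AP-1 letters in capitals. All 4 lie on the plus strand of chromosome 9, at chr9:7272414-7272513 for *Mmp13*, chr9:7347274-7347373 for the second listed start of *Mmp12*, chr9:7445722-7445821 for *Mmp3* and chr9:7502242-7502341 for *Mmp10*.
Mmp13: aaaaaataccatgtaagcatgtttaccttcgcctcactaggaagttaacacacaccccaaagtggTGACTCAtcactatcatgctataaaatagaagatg
Mmp12: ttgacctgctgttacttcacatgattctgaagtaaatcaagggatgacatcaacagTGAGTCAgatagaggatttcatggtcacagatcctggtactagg
Mmp3: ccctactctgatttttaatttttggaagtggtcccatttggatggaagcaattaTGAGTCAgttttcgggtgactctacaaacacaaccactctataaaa
Mmp10: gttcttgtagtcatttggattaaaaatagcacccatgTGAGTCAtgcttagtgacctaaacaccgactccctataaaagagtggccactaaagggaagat
The AP-1 letters were thus present in the windows of *Mmp13*, which rose, and of genes that were not called. Of the 18 genes that fell 11 had a promoter entry, and of these only *Mmp12* had the letters, at its second listed start, which lies inside the gene as listed, while the window of its first start did not. They were not found in those of *Mmp15* and *Mmp28*, which rose. In *Mmp13* they begin 35 bases before the start, in *Mmp12* 44, in *Mmp3* 46 and in *Mmp10* 63. A match describes letters in a window and shows no binding.

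Other genes of matrix proteolysis were called in both directions. A list of 47 such partner genes held other proteases as well as activators, inhibitors and cofactors, and 35 could be tested. Of these, 5 (14.3%) were higher, against 17.7 percent of all genes, and 16 (45.7%) lower, against 12.5 percent. The median log2 fold change of the 35 was -0.31 beside the -0.02 of all genes tested. *Plau*, which encodes the urokinase that starts a cascade activating pro-MMPs, had 450, 216 and 266 CPM in the KO-labelled libraries and 21.3, 20.8 and 21.8 CPM in those labelled WT (log2 fold change 3.87, SE 0.26, adjusted p = 3.45e-05). As with *Mmp13*, KO replicate 1 was the highest library. The other genes that rose were *Plaur*, the urokinase receptor gene (0.74), the cathepsin genes *Ctsd* (0.55) and *Ctsb* (0.30), and *Bsg* (0.19), which encodes an inducer of MMPs. Among those that fell were *Ctss* (-0.53) and *Ctsk* (-0.44), both cathepsin genes, *Bmp1* (-0.45) and *Pcolce* (-0.45), which encode the procollagen C-proteinase and its enhancer, and *Furin* (-0.25), whose protein activates membrane-type MMPs. *Reck*, a membrane-anchored MMP inhibitor gene, was not called (-0.22, adjusted p = 0.0774). With scaling on the fibroblast markers 12 of the 35 (34.3%) were higher and 0 lower, against 61.4% and 0.298% of all genes.

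Of 16 genes of proteins cut by these enzymes, 13 could be tested and 10 fell, against 12.5 percent of all genes, among them *Bgn* (-0.47), *Eln* (-0.42), *Vcan* (-0.36) and *Dcn* (-0.40), which encode biglycan, elastin, versican and decorin. *Acan*, the gene of aggrecan, had 11.9, 11.9 and 13.9 CPM with the label KO and 14.4, 16.7 and 15.2 CPM with the label WT and was not called (adjusted p = 0.0824). *Vwf*, the gene of von Willebrand factor and an endothelial marker, was the only one that rose (log2 fold change 1.5, SE 0.11, adjusted p = 4.96e-05). With scaling on the fibroblast markers, of which *Dcn* is one, 2 of the 13 were higher and 0 lower past the threshold, and their median was 0.03.

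Marker genes of several cell types moved beside these results. The 18 falls had a median of -0.43, and the median of the marker lists was -0.41 for fibroblasts (11 of 12 genes lower), -0.39 for macrophages (6 of 10 lower, 1 higher), -0.41 for mural cells (3 of 6 tested genes lower, 1 higher), -0.42 for cardiomyocytes (6 of 7 lower) and -0.41 for mesothelial cells (4 of 5 lower, 1 higher). The summed level fell from 846 to 865 CPM with the label WT to 596 to 674 CPM with the label KO for mural cells, from 796 to 803 CPM to 566 to 628 CPM for cardiomyocytes and from 458 to 471 CPM to 347 to 390 CPM for mesothelial cells. The endothelial markers moved the other way, with a median of 2.43 and 11 of 12 genes higher. *Kdr*, the gene of a VEGF receptor and 1 of these markers, was at 240, 122 and 140 CPM with the label KO and at 8.68, 9.08 and 8.89 CPM with the label WT, so that KO replicate 1 was again the highest. The part of these cell types in the rises and falls of the protease genes was not tested, and in bulk libraries fewer cells of a type and less RNA per cell cannot be told apart.

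**Figure D5:**
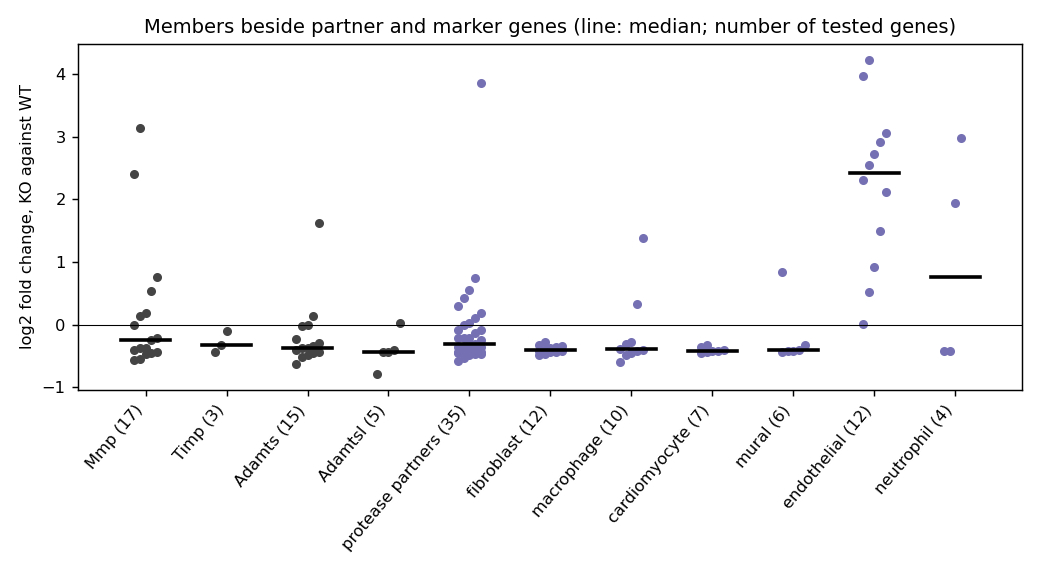
Log2 fold change (vertical axis, libraries labelled KO against WT) of each tested gene of the 4 families (black) and of the partner and marker lists (purple), with the number of tested genes in parentheses and the median as a line. The medians of the fibroblast, macrophage, cardiomyocyte and mural markers lie between -0.42 and -0.39, that of the endothelial markers at 2.43 and those of the 4 families between -0.43 and -0.25; with scaling on fibroblast markers all points move up by about 0.41.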

How the data were processed

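RNA-seq was analysed in the 6 libraries of cardiac fibroblasts described above. Per the labels and the study's methods, the authors sequenced strand-specific libraries and mapped the reads to mm10 (GRCm38.p4) with HISAT2; the submitters' processing notes also name edgeR. The counting tool, the annotation and the strand setting are not given in the sources used here. The deposited counts are whole numbers per gene without normalization, and the deposited FPKM values divide them by gene length and library total. The authors' values were used as deposited.

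The quasi-likelihood test of edgeR 4.0.16 (R 4.3.3) was run on the counts, two-sided, after filterByExpr and TMM scaling, with all 6 libraries and no covariate, and p-values were adjusted after Benjamini and Hochberg over all 14084 genes tested. CPM are TMM-normalized. The 40 tested genes of the families were at or above the filter's cutoff in every library of both labels. As alternatives, the filter was dropped or set to a mean CPM of 1, and TMM was replaced by library size, the upper quartile or scaling on the 12 fibroblast markers. DESeq2 1.42.0 and limma 3.58.1 (on log2 of FPKM + 1 and of FPKM + 0.1) were run as other tools. Further fits left out single libraries, added the replicate number as a block or required a change above 2-fold as well. The ratio of family sums was also recomputed with CPM sums, without each library and without *Mmp13*, and the substrate genes with marker scaling, alternatives chosen after seeing the data.

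The members, the partner, substrate and marker lists and the rule for naming genes were chosen with earlier results of these data known. Named with their values were all TIMP genes, *Mmp2*, *Mmp9*, *Mmp14*, the 5 genes of highest mean FPKM and every gene past the threshold. Other genes, such as *Mmp3*, *Mmp10*, *Adamts1* and the genes under the filter, were named after their values were seen. The mast cell markers (3 of 6 at 0) summed to 11.3 to 12.6 CPM with the label KO and to 13.2 to 16.4 CPM with the label WT, nearly all of it *Kit*, and the lymphocyte markers to at most 0.210 CPM. Replicates of a label differed by more than sampling noise. The scripts were tested on simulated data before use. Exon overlaps, shared stretches of 50 bases and positions came from GENCODE M21 on GRCm38. The plots were made in Python 3.11.15 (matplotlib 3.10.9). The study's other experiments were not analysed here, and some items are not reported here.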

Additional observations from a re-analysis of the deposited data

How the results depend on the processing

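Of the 22 called genes, 20 kept their direction and call in all 14 alternative settings other than the fibroblast marker scaling; the exceptions were *Mmp8* and *Adamtsl1*, and the cause was not tested. Among the 40 tested genes the count of rises was 4 in each of these settings and that of falls 16 to 21. With a fold change above 2 in addition, 0 of the 40 genes and 0 of the partner genes were lower and 1 partner gene was higher, and of all genes 844 were higher and 38 lower. Scaling on the fibroblast markers, which moves all genes up by 0.41, gave 11 higher and 0 lower of the 40 genes, 12 higher and 0 lower of the partner genes, and 8643 higher and 42 lower of all genes. Leaving out 1 library at a time, 1131 to 1614 of all genes were lower, against 1760 with 6 libraries; the lowest count was without KO replicate 3.

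Under marker scaling the log2 fold change turned positive for *Adamts10* (0.12), *Adamts12* (0.0352), *Adamts14* (0.0352), *Adamts15* (0.0799), *Adamts16* (0.39), *Adamts5* (0.0135), *Adamts6* (0.18), *Adamts9* (0.40), *Adamtsl3* (0.00285), *Mmp10* (0.41), *Mmp11* (0.16), *Mmp14* (0.0140), *Mmp16* (0.0435), *Mmp27* (0.0364), *Mmp3* (0.20), *Timp2* (0.32) and *Timp3* (0.0834). Genes near 0 also changed sign elsewhere. With library size, *Adamts16*, *Adamts9* and *Mmp10* were at 0.0227, 0.0182 and 0.0216. With limma on log2(FPKM + 1) they were at 0.00192, 0.0119 and 0.00660, and on log2(FPKM + 0.1) *Adamts9* was at 0.0131 and *Mmp10* at 0.00489. With the upper quartile *Adamtsl5* was at -0.0124. Without 1 library at a time *Adamts1* ran from -0.0146 to 0.24, *Adamts16* from -0.11 to 0.16, *Adamts9* from -0.10 to 0.0354, *Adamtsl5* from -0.00415 to 0.0563 and *Mmp10* from -0.12 to 0.16. The TIMP to MMP ratio differed by 0.0117 with CPM sums and by 0.00673 without *Mmp13*, against -0.0803, and ran from -0.100 to -0.0510 without 1 library.

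With the replicate number as a block, 4 genes were higher and 17 lower, and *Adamtsl1* lost its call (adjusted p = 0.054). The labels do not say whether libraries with the same number were paired. Deviations of libraries with the same number correlated at 0.00055, 0.00289 and 0.036, and those with different numbers at -0.0321 to 0.0251. Such correlations cannot decide whether the libraries were paired. The 9 genes with counts but no test had too few counts to pass the filter.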
